A study of Rattus norvegicus with 3 samples.

Results

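The Dnmt1 locus was described here as every deposited region that overlaps a 1 Mb window of rat chromosome 8 (chr8:19450000-20450000, assembly rn4), placed around a region in an intron of Dnmt1 (chr8:19965118-19965567). The window held 60 of the 95306 regions in the 3 deposited lists. The members were selected on their presence in a list, that is on the MACS p of the contrasts described here, so their values are given as a description with no test. The livers came from male Wistar rats at 1 day of age, and the groups differed in what the dam ate during pregnancy. The control diet (C) contained 18% casein, while the maternal low protein diets contained 9%, either without extra folic acid (MLP) or with it (MLP-F). Folic acid was at 1 mg/kg in the C and MLP diets and at 5 mg/kg in the MLP-F diet. Each group was 1 library, pooled from 6 animals by the sample labels and from 8 by the methods, all from 1 litter, so diet and litter cannot be told apart. Genomic DNA carrying methylated CpG was captured with an MBD protein (methyl-CpG binding domain) and sequenced. In whole liver, a different mix of cell types and a different methylation level within a cell type cannot be told apart.

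Dnmt1 encodes the maintenance DNA methyltransferase, which copies the methylation pattern of the parental strand onto the newly made strand after DNA replication. It is brought to replicating DNA by Uhrf1, which recognises CpG sites methylated on the old strand only. Its methyl donor, S-adenosylmethionine, is made from methionine, and the folate cycle supplies methyl groups to remake methionine from homocysteine. Dividing cells of the fetal and newborn liver need this enzyme to keep their methylation through cell division.

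The intronic Dnmt1 region is the member for which bisulphite sequencing primers had been designed and used in the study. They are shown because they mark the DNA stretch at which methylation of single CpG sites can be read independently of MBD capture. Bisulphite turns unmethylated C into T. Capitals mark the G of the forward primers and the C of the reverse primer, the bases that belong to G:C pairs left by the conversion.
F1: taGaGGGttattttaGtaataGttat
F2: taaaGGtaaGatttaaaGaaaGG
R: tataCataatttatCttCCtCaaaC
The forward primers are 26 and 23 nt long and hold 0 C, and the reverse primer is 25 nt long and holds 0 G. Each of the 3 primers holds 0 CpG. By these counts the forward primers read as a converted strand and the reverse primer as its complement. The primers were not placed on a genome here, since no sequence of rn4 was used. Which strand of the genome they match is therefore not given.

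The intronic Dnmt1 region was listed above C and above MLP-F in the MLP library, and it was absent from the list of regions in which MLP-F exceeded C. A listed region held a larger share of captured fragments in the first library than in the second, by the peak caller MACS, whose score grows as its p falls (a score of 50 is the p cut-off of 1e-05). The score was 220.58 in the MLP vs. C list, place 1783 of 35998 by score, or 4.95% of the way down the list. It was 115.99 in the MLP vs. MLP-F list, place 9713 of 33730, or 28.8% of the way down. The region therefore stood much nearer the top against the control diet than against the folate-supplemented diet, and within the window it was the highest of 19 in MLP vs. C and at place 12 of 34 in MLP vs. MLP-F. Its length was 450 bp, and 16.3% of the MLP vs. C regions were as short or shorter. The paper gives this region a false discovery rate (FDR) above the limit it used to keep MLP vs. C regions. A place by score is thus not a call at that limit. The deposited lists are many times longer than the sets of regions that the study kept at its FDR limit. Of the 33730 MLP vs. MLP-F regions it kept only a very small part, and of the MLP-F vs. C regions none. Apart from these lists, the paper reports bisulphite sequencing of clones from different livers at this region. It gives a significant difference in methylation between C and MLP there, which was not re-examined here. With 1 library per group there is no replicate check within the lists, and MACS compared reads of 2 libraries, not diets. The MLP library is the treatment in both lists, and it held 2.05 times the tags of C and 1.42 times those of MLP-F. The part of depth in these scores was not tested.

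The next listed regions in the MLP lists lay 11.9 to 63.8 kb away. The median gap between regions on chromosome 8 was 39.2 kb for MLP vs. C and 43.7 kb for MLP vs. MLP-F. Only the distance of 63.8 kb was above the median gap of its list. In the MLP vs. C list the nearest were 25.5 kb before the Dnmt1 region (chr8:19938518-19939584, score 99.88) and 63.8 kb after it (chr8:20029374-20030065, score 89.01). In the MLP vs. MLP-F list they were 22.1 kb before it (chr8:19941997-19943033, score 121.24) and 11.9 kb after it (chr8:19977421-19977851, score 51.72). The MLP-F vs. C list had nothing nearer than 353 kb before (score 55.79) and 101 kb after (score 72.04). The Dnmt1 region thus sat in a stretch of 454 kb in which the MLP-F vs. C list had 0 regions. By length this stretch was at place 44 of the 1249 gaps between regions of that list on chromosome 8, where the median gap was 51.2 kb. A region missing from a list scored under the cut-off, which does not make the libraries alike there.

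RefSeq gives the rat Dnmt1 gene a length of 46609 bp in the assembly GRCr8. No annotation of rn4 was used here, so this length serves only as a reach around the intronic region: a listed region farther away could lie in Dnmt1 only if the gene were longer in rn4. Within this reach the MLP vs. MLP-F list had 6 other regions, the MLP vs. C list 2 and the MLP-F vs. C list 0. The 6 fell into clusters on both sides. Before the Dnmt1 region lay a cluster with scores of 146.19 (chr8:19935772-19937831), 82.07 (chr8:19938518-19939584) and 121.24 (chr8:19941997-19943033). After it lay a cluster with scores of 51.72, 55.46 and 413.96, the last at chr8:19984128-19984957, 18560 bp from the Dnmt1 region and at place 634 of its list. Over the placed chromosomes, the median region of the MLP vs. MLP-F list had 1 other region of the list within the same reach, and 5.53% of them had 6 or more. For MLP vs. C the median was 2, as at Dnmt1. The 2 regions of that list within reach were the one 25.5 kb before, which is also in the MLP vs. MLP-F list, and one 46233 bp before (chr8:19918173-19918884, score 111.11), which is in neither other list.

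**Figure D1:**
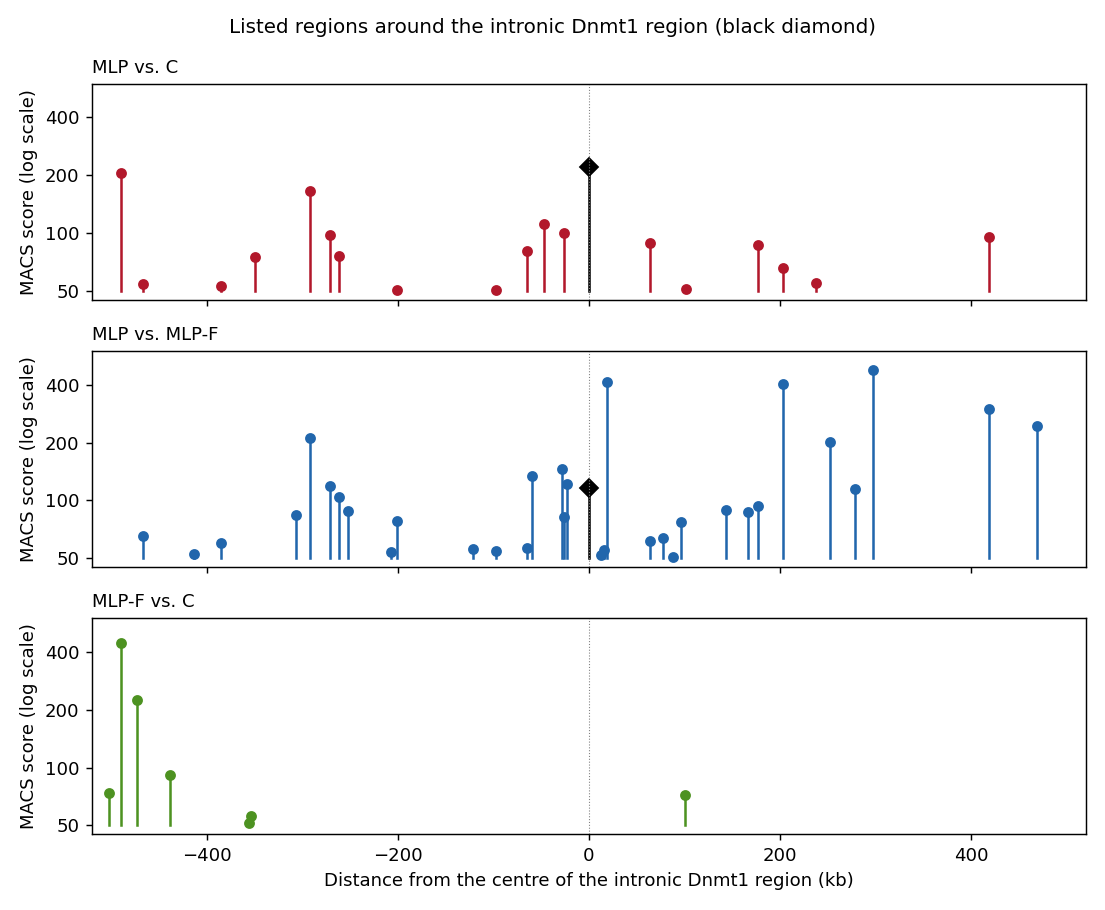
MACS score (log scale) of each of the 60 listed regions against its distance in kb from the centre of the intronic Dnmt1 region, with 1 panel for each deposited list and a black diamond for the Dnmt1 region. The Dnmt1 region has the highest score of the MLP vs. C panel (220.58), is at 115.99 in the MLP vs. MLP-F panel and is missing from the MLP-F vs. C panel, which has no region between 353 kb before and 101 kb after it.

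The genes beside Dnmt1 in GRCr8 are Eif3g, a subunit of a translation initiation factor, and Ppan on one side, and S1pr2, a receptor for sphingosine 1-phosphate, Mrpl4, a protein of the mitochondrial ribosome, and the adhesion molecule genes Icam1, Icam4 and Icam5 on the other. The listed regions were not assigned to any of these genes, since the order and spacing of genes can differ between assemblies.

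Over the whole window, the MLP vs. MLP-F list had the most regions. These are counts of deposited regions, and nearly all of the MLP vs. MLP-F list lay outside the set that the study kept. It had 34, covering 25629 bp, against 19 in the MLP vs. C list, covering 13720 bp, and 7 in the MLP-F vs. C list, covering 5166 bp. Cut into 128 windows of the same size, chromosome 8 had a median of 11 regions per window in the MLP vs. MLP-F list, and no window had more than the 34 at Dnmt1 (1 other window had as many). For MLP vs. C the median was 12 and 20 windows had more than the 19 at Dnmt1. For MLP-F vs. C the median was 9, and 77 windows had more than the 7 at Dnmt1. The Dnmt1 window was thus at the top of chromosome 8 in the MLP vs. MLP-F list, in the upper part in the MLP vs. C list and below the median in the MLP-F vs. C list. Over all placed chromosomes, 65 of 2710 windows of this size had more than 34 regions of the MLP vs. MLP-F list. The windows on either side held 20 and 31 regions of that list, 14 and 14 of the MLP vs. C list, and 1 and 9 of the MLP-F vs. C list, so the density of MLP vs. MLP-F regions was not confined to the window around Dnmt1.

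**Figure D2:**
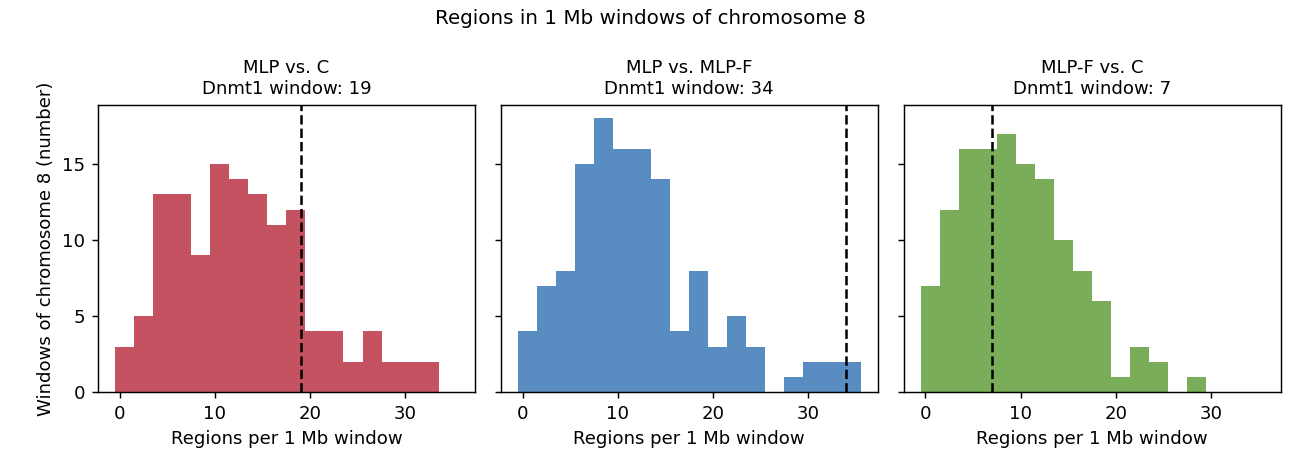
Number of 1 Mb windows of chromosome 8 (vertical axis) by the number of listed regions they hold (horizontal axis, 2 counts to a bar), with 1 panel for each list and a dashed line at the window around Dnmt1. The line is at 34 in the MLP vs. MLP-F panel, where no window holds more, at 19 for MLP vs. C and at 7 for MLP-F vs. C.

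The 60 regions lay at 44 separate places, and 14 of these, the intronic Dnmt1 region included, were in the MLP vs. C and the MLP vs. MLP-F list. A further 20 were in the MLP vs. MLP-F list alone, 3 in the MLP vs. C list alone and 5 in the MLP-F vs. C list alone. The last 2 were in both lists against C, and 0 were in all 3 lists. Of the 19 MLP vs. C regions, 14 (73.7%) were thus also in the MLP vs. MLP-F list, where 39.4% of the whole MLP vs. C list were. For the MLP-F vs. C list the count was 2 of 19 (10.5%), against 22.6% of the whole list. Read from the other side, 14 of the 34 MLP vs. MLP-F regions (41.2%) were also higher than in C, close to the 42.1% of that whole list, and 0 of 34 were in the MLP-F vs. C list, where 1.27% of the whole list were. Of the 7 MLP-F vs. C regions, 2 (28.6%, against 31.8% of the whole list) were in the MLP vs. C list and 0 (against 1.67%) in the MLP vs. MLP-F list. The lists share libraries, so these shares are counts of presence and were not tested. Every overlap between the MLP lists, 14 of 14 in the window and 14194 of 14194 in all, had the same start and end. Of the overlaps with the MLP-F vs. C list, 0 did. The MLP library is the treatment in both MLP lists, so the same positions there are not independent findings.

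Among the 14 regions in both MLP lists, the Dnmt1 region and the 3 nearest to it stood nearer the top of the MLP vs. C list, and the other 10 stood nearer the top of the MLP vs. MLP-F list or at nearly the same place in both. The region 63941 bp before Dnmt1 (chr8:19900536-19901176) scored 81.10 against C and 56.85 against MLP-F, at 46.1% and 84.6% of the way down the lists. The region 25533 bp before it scored 99.88 and 82.07, at 31.1% and 49.6%. The region 63806 bp after it scored 89.01 and 61.79, at 38.9% and 75.5%. These 4 regions followed each other without another shared region between them, and the pattern was noticed after their values were seen. The same split was not counted over all 14194 regions in both MLP lists. Whether 4 of 14, or such a run, is unusual is therefore not known. The next shared regions on either side were at 98.5% and 89.6% of the way down before them (chr8:19867382-19867950) and at nearly the same place in both lists after them, at 40.8% and 40.7% (chr8:20141681-20142417). The largest difference of the other kind was at chr8:20167821-20169183, which scored 65.76 against C, at 66.1% of the way down, and 402.96 against MLP-F, at 2.02%. At chr8:20383700-20384248 the scores were 95.33 and 298.68, at 33.8% and 4.30%. The region at chr8:19673640-19674013 was high in both lists, with 164.83 and 211.23, at 10.3% and 9.50%. The remaining 7 scored between 50.71 and 98.45 against C and between 54.41 and 118.83 against MLP-F. Scores of different lists rest on control libraries of different depth, so places within each list are given beside them.

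**Figure D3:**
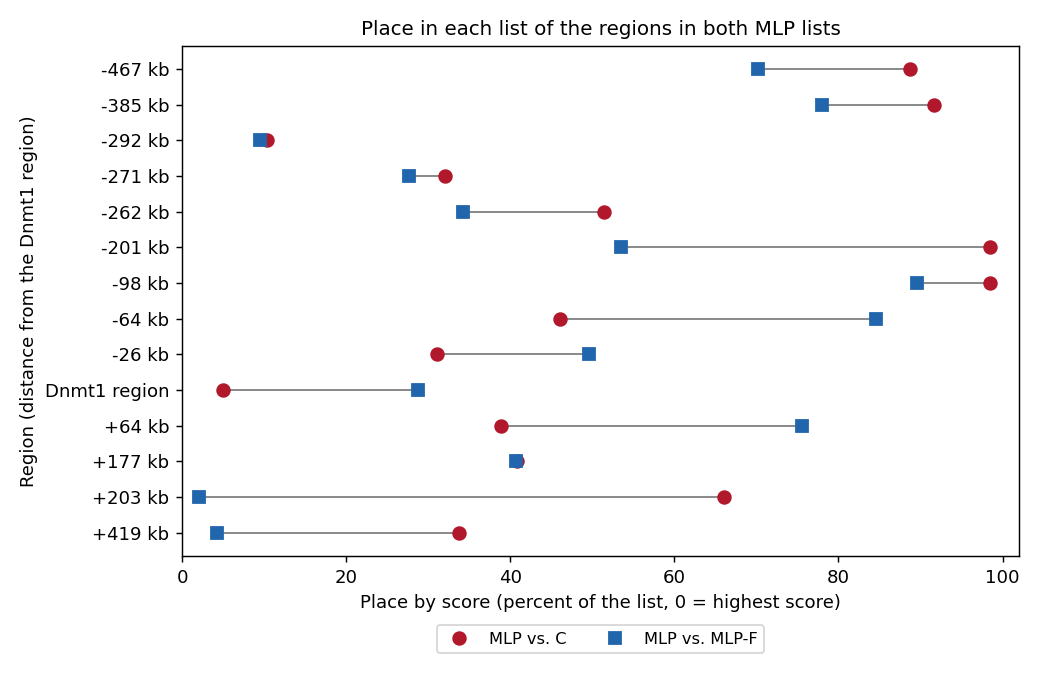
Place by score, in percent of the list counted from the highest score, of each of the 14 regions in both MLP lists (rows, by distance from the Dnmt1 region), with circles for MLP vs. C and squares for MLP vs. MLP-F. The Dnmt1 region is at 4.95% and 28.8%, and it and its 3 nearest shared neighbours are the 4 rows with the circle to the left.

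Of the 20 regions in the MLP vs. MLP-F list alone, 8 had scores of 100 or more, and the 4 highest all lay after the Dnmt1 region. The highest score of the window, 476.50, was at chr8:20262018-20262964, at place 417 of the list and 297 kb from the centre of the Dnmt1 region. It was followed by the region 18560 bp after Dnmt1 (413.96) and by those at chr8:20433762-20434339 (243.11) and chr8:20216851-20217314 (201.59). The next, with a score of 146.19 and a length of 2060 bp, was in the cluster before the Dnmt1 region and was the longest of the window. Over the list, 16 regions lay after the Dnmt1 region with a median score of 91.45 and a highest of 476.50, and 17 before it with a median of 82.07 and a highest of 211.23. The MLP vs. C list had 12 before (median 78.70) and 6 after (median 76.12).

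The 7 MLP-F vs. C regions lay away from Dnmt1, with 6 of them 353 kb or more before it. The paper reports that it found no differentially methylated regions for MLP-F vs. C. These 7 are regions of the deposited list, which was taken here without an FDR limit. The highest, at chr8:19475130-19475920, scored 446.63, at place 69 of 25578 in the list and place 3 on chromosome 8. It overlapped the MLP vs. C region chr8:19475060-19475925, which scored 205.09 and was second to Dnmt1 among the MLP vs. C regions of the window. Both libraries from low protein dams were thus listed above C at this place, and MLP was not listed above MLP-F there. The neighbouring region at chr8:19491775-19492699 scored 223.41 and was in no other list. The other place in both lists against C, chr8:20066427-20067237, scored 72.04 in the MLP-F vs. C list, at 46.2% of the way down, and overlapped a region with a score of 51.35 in the MLP vs. C list, at 95.6%. The remaining 4 scored between 51.70 and 91.95.

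Measured against whole lists, the median scores at the locus were a little higher in each list. In the window the median was 81.10 in MLP vs. C, 87.32 in MLP vs. MLP-F and 73.62 in MLP-F vs. C, against 77.39, 81.77 and 69.37 over the whole lists. Scores of 100 or more were held by 4 of 19 (21.1%), 14 of 34 (41.2%) and 2 of 7 (28.6%) regions, against 31.1%, 36.8% and 19.1% of the lists. For MLP vs. C this share was thus below that of the list, unlike the median. The 4 of MLP vs. C were those of Dnmt1 (220.58), chr8:19475060-19475925 (205.09), chr8:19673640-19674013 (164.83) and chr8:19918173-19918884 (111.11). Median lengths were 692, 668 and 791 bp, against 674, 727 and 657 bp.

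**Figure D4:**
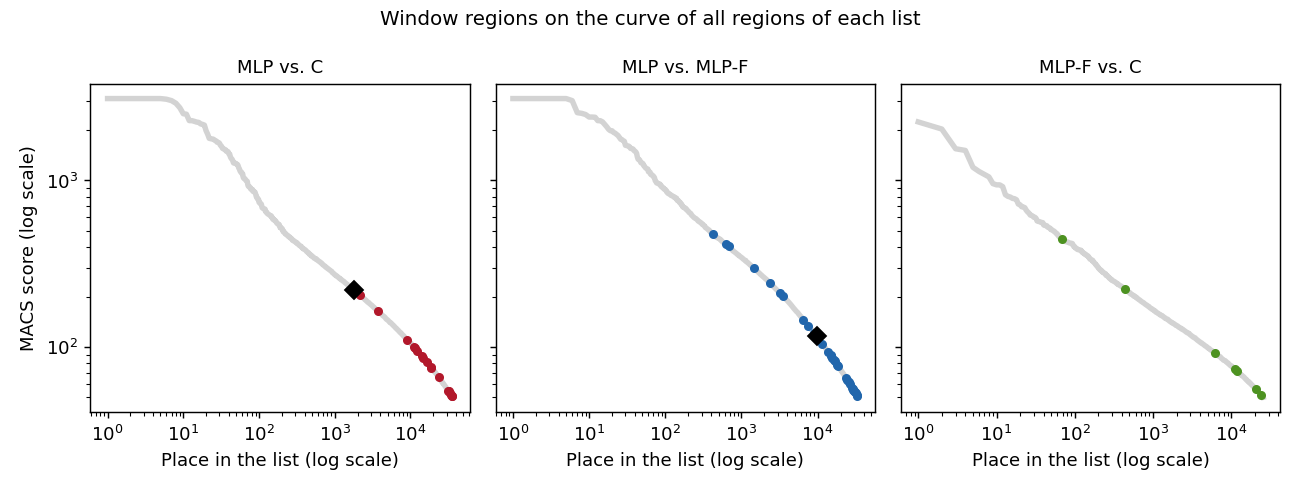
MACS score against place for all regions of each list (grey, both axes on log scales), with the window regions as coloured points and the intronic Dnmt1 region as a black diamond. The Dnmt1 region is at place 1783 for MLP vs. C and place 9713 for MLP vs. MLP-F, and the window's highest points are at place 417 for MLP vs. MLP-F and place 69 for MLP-F vs. C.

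At the edges of the window, the outermost regions inside it scored 205.09 and 95.33 for MLP vs. C, 65.11 and 243.11 in the MLP vs. MLP-F list, and 73.62 and 72.04 in the MLP-F vs. C list. The first regions outside it scored 58.80 and 83.99, 57.90 and 154.85, and 62.07 and 71.96.

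Of 28 genes of DNA methylation and methyl group supply, the region annotation of the study, which covers a selected part of the lists and not the intronic Dnmt1 region, names 2. That annotation gives each region its nearest gene, so a region need not lie within the gene named. Mtr, which makes methionine from homocysteine with a methyl group from folate, had a region on chromosome 17 (chr17:68832778-68833250) that scored 128.71 for MLP vs. C and 168.40 for MLP vs. MLP-F and was not in the MLP-F vs. C list, the same presence as the Dnmt1 region. Tet1, which oxidises methylated C, had a region on chromosome 20 (chr20:25034033-25034633) that scored 122.25 for MLP vs. C, was not in the MLP vs. MLP-F list and overlapped one that scored 108.56 in the MLP-F vs. C list. Dnmt1, Dnmt3a, Dnmt3b, Uhrf1, Tet2, Tet3 and Gnmt were among the 26 not named there. The whole lists were not searched for these genes, since no gene positions in rn4 were used. No share of all genes was set beside the 2 of 28, so the count does not say whether the pathway is named more or less often than other genes.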

How the data were processed

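MBD-seq was done on 3 pooled liver libraries, 1 per group. Read pairs of 76 bp were aligned by the authors with Bowtie to rn4, and MACS was run between pairs of libraries (p cut-off 1e-05). CASAVA is also named in the submitters' processing notes. No source used here gives a version of these tools. The deposited score is 10 times the −log10 of the MACS p, and no count, fold or FDR was used. Library totals from the quality control of the study were 32741244 tags in MLP, 23087218 in MLP-F and 16008758 in C.

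Starts were made 1-based, regions overlapping the window were taken from each list, and overlap meant at least 1 bp. Places are by score, with ties sharing the last place. Chromosome 8 was cut into 1 Mb windows in phase with that of Dnmt1. Overlap was tested on simulated data. Alternatives were scores of at least 60 or 100, windows of 500 kb or 2 Mb, regions within 1 kb of each other, a reciprocal overlap of 50%, places on chromosome 8 and scores per base. Primer sequences came from the supplement of the study, and the length and neighbours of Dnmt1 from RefSeq (GRCr8). Dnmt1, the highest region of each list and its nearest regions were named by rule, and other regions after their values were seen. The members and gene lists were chosen with earlier results of these data known. Python 3.11.15, numpy 2.4.6, SciPy 1.17.1 and matplotlib 3.10.9 were used.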

Additional observations from a re-analysis of the deposited data

How the results depend on the processing

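The intronic Dnmt1 region stayed in both MLP lists and out of the MLP-F vs. C list under every score minimum and overlap tried. Its scores of 220.58 and 115.99 exceed each minimum, and its position is the same in both MLP lists. The nearest MLP-F vs. C region is 101 kb away, so these settings could not have changed its presence. With scores of at least 100, the window held 4 MLP vs. C regions, 14 MLP vs. MLP-F regions and 2 MLP-F vs. C regions, and the share of MLP vs. C regions also in the MLP vs. MLP-F list was 50% (2 of 4). The 500 kb window held 11 MLP vs. C regions and 1 MLP-F vs. C region, and the 2 Mb window held 35 and 14 of these and 67 MLP vs. MLP-F regions. These follow from fewer regions or another width. Ranked by score per base, the Dnmt1 region was 1.89% of the way down the MLP vs. C list and 12.3% down the MLP vs. MLP-F list, since it is short. The order of the lists by number of regions in the window held under each score minimum and width. No paired analysis was possible because each group was 1 pooled library. Nothing is known here of regions under the p cut-off, and the depth of the libraries limits which regions were listed.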
